A study of Homo sapiens with 4 samples.

Results

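The SLC25 carriers are the nuclear-encoded family of small membrane proteins, most of them in the inner mitochondrial membrane, and they were followed here after depletion of UPF1 in H9 cells, a long-used line of human embryonic stem cells. Members were the rows of the deposited gene table that carry a RefSeq mRNA identifier (NM_) and a symbol beginning SLC25A, which gave 43 genes of 15942 in the table. All 43 passed the low-count filter, so none dropped out of the test. RefSeq lists 48 coding genes of this name, and SLC25A2, SLC25A31, SLC25A34, SLC25A45 and SLC25A47 have no row in the table and were not analysed here.

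The study transfected H9 cells, grown on Matrigel in E8-supplemented DMEM/F12, with a small interfering RNA (siRNA) and sequenced total RNA. The control siRNA was directed at luciferase (siLuc, 2 libraries, called control a and control b) and the other at UPF1 (siUPF1, 2 libraries, replicates 1 and 2). The protocol shared by all 4 libraries names siUPF3A and a time course with the transcription blocker actinomycin D, but gives no time point for any library. The labels do not state separate cultures for the libraries, and the p-values therefore describe spread among these libraries alone, which may be technical.

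Carriers of this family exchange nucleotides, phosphate, carboxylates, amino acids, cofactors and metal ions between the cytosol and the mitochondrial matrix, and so tie respiration to the rest of metabolism. UPF1 is the central helicase of nonsense-mediated RNA decay (NMD), which degrades transcripts whose translation stops well ahead of an exon junction, among them many alternatively spliced forms of ordinary genes. RNA of such forms is therefore a usual place to look for an effect of UPF1 loss.

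UPF1 itself, the target of the siRNA, stood at 219 and 205 CPM (counts per 1e+06 counts, scaled between libraries by TMM) in the controls and at 60.8 and 78.2 CPM in the siUPF1 libraries, or 32.8% of the control mean, a log2 fold change of -1.60 ± 0.07 (SE, n = 2 against 2, edgeR adjusted p = 1.06e-102). The libraries held 8887239 to 11200973 counts. All 10 embryonic stem cell markers were present. Their summed levels were 2275 and 2131 CPM in the controls and 1993 and 1829 CPM after siUPF1. Of the 10, 6 were called lower, where 9.14% of all tested genes were. Markers of other lineages were low: FOXA2 of endoderm stood at 4.98 and 4.09 CPM in the controls and 0.600 and 0.535 CPM after siUPF1. The mesoderm marker MIXL1 stood at 4.86 and 5.89 against 2.90 and 3.21 CPM, and the 4 trophoblast markers together at 15.95 and 14.5 against 19.3 and 20.6 CPM. Of these 4, 2 were called higher, where 16.8% of all tested genes were. They were GATA3, at 2.60 and 2.39 against 6.20 and 5.26 CPM, and CGA, at 0.339 and 0.599 against 1.10 and 1.43 CPM. KRT7, at 12.3 and 10.7 against 11.6 and 12.9 CPM, made up most of the sum and was not called. The neural markers PAX6 and SOX1 together stood at 10.07 and 10.8 against 10.6 and 10.07 CPM, and neither was called. The 3 fibroblast markers in the table, genes that are not limited to fibroblasts, together stood at 484 to 511 CPM in all 4 libraries. The summed stem cell marker levels fell from library to library as the library totals rose, also between the 2 controls. The part of library totals, or of the trend on read density described below, in these shifts was not tested. Nor was the part of these shifts in the carrier results. In bulk RNA, fewer cells of a type and less RNA per cell cannot be told apart.

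Most carriers changed little. A gene was called when its adjusted p in edgeR's quasi-likelihood test was under 0.05, with Benjamini-Hochberg adjustment over all 15557 tested genes. By this rule 5 of the 43 carriers rose (11.6%, against 16.8% of all tested genes), namely SLC25A41, SLC25A14, SLC25A26, SLC25A38 and SLC25A10. Only SLC25A53 fell (2.33%, against 9.14% of all tested genes), and the other 37 were not called. Neither share was above that of the table as a whole, so the family did not stand out by the number of its calls. The median log2 fold change (siUPF1 minus siLuc) was 0.01 over the carriers and -0.01 over all tested genes, and the median size of the change regardless of sign was 0.13 and 0.15.

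In DESeq2, run as an alternative on the same counts, 1 carrier remained higher (SLC25A38; 8.19% of all tested genes were called higher) and 1 lower (SLC25A53; 2.99% of all tested genes). For 15 carriers both siUPF1 libraries exceeded both controls, a share of 34.9% against 32.3% of all tested genes. They lay below both controls for 12 carriers, 27.9% against 31.1%, and the groups overlapped for 16. These shares were near those of the whole table. Of the 37 carriers not called, 8 had an unadjusted p under 0.05 in edgeR. With the called ones this made 14 of 43 carriers, against 5678 of the 15557 tested genes. Of the same 37, 20 had a 95% interval lying wholly within ±0.3 on the log2 scale, a fold of 1.23 either way.

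**Figure D1:**
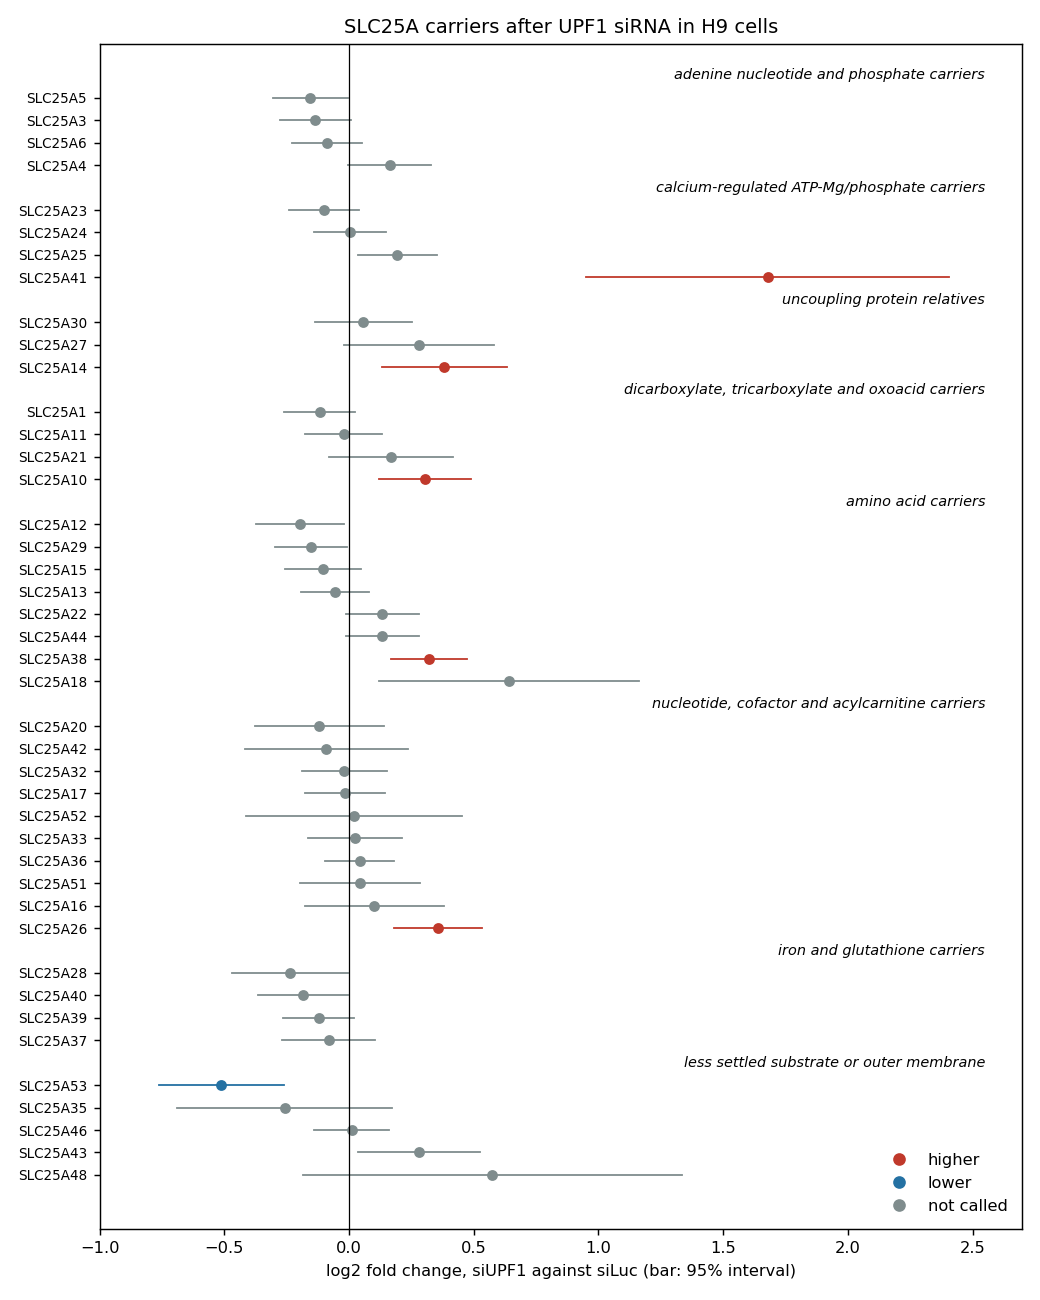
Log2 fold change of 42 SLC25A carriers (x axis, siUPF1 against siLuc, 2 libraries each) with its 95% interval from edgeR, grouped by what the carriers transport and coloured by call at an adjusted p of 0.05. Of the points, 5 are red (higher), 1 is blue (lower) and 36 are grey, 30 lie within 0.2 of zero, and the grey points of SLC25A18 (0.64) and SLC25A48 (0.58), with wide intervals, lie beyond 4 of the red ones.

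Annotated transcripts that fit the NMD rule are common in this family. In GENCODE release 29, 26 of the 43 carriers (60.5%) have at least 1 transcript of the class "nonsense_mediated_decay", against 40.9% of 13442 other coding genes of the table that could be matched. Of the 5 carriers that rose, 4 have such a transcript, and SLC25A14 and the lower SLC25A53 have none. The sequences below show where these transcripts stop in the carriers that rose, with SLC25A17 for contrast, a gene with the same kind of stop and no call. SLC25A10-208 and SLC25A26-205, also of this class but with an incomplete annotated start, are not shown. Each is 5′ to 3′ from the GENCODE transcript (GRCh38), with 12 bases on either side of the stop codon, which is in capitals.
SLC25A41-202: ccatggaggtgcTGAagacgcggttga
SLC25A41-203: accctgggcataTAGgctgtgagctgg
SLC25A26-204: tataactgctttTGAatagagcagcta
SLC25A38-209: tggcctcactggTAActcaacctgcgg
SLC25A10-207: ggcgttgttttcTGAccgtgtcttgcc
SLC25A17-201: ggactgagtggtTAAtgtgttgctaac

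All 6 stops lie more than 50 bases ahead of the last exon junction, the usual annotation rule for this class. In SLC25A41-202 the reading frame ends after 242 codons, where the full-length protein has 370, and 309 bases before the last junction. SLC25A41-203 keeps all 370 codons, but a spliced junction lies 87 bases after its stop. The frame of SLC25A26-204 ends after 86 of 274 codons, 1547 bases ahead of the last junction, and that of SLC25A38-209 after 252 of 304 codons, 89 bases ahead. SLC25A10-207 stops after 39 codons, 887 bases ahead of its last junction. The deposited counts are per gene and do not separate these transcripts from the main mRNA, so which form changed was not measured.

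The annotated stop did not go with a call in most carriers that have one. Of the 26 carriers with such a transcript, 4 were called higher (15.4%) and 0 lower by edgeR (3 were lower at an unadjusted p under 0.05), and of the 17 without, 1 was higher and 1 lower (5.88% each). With the trend on read density described below removed, 3 of the 26 and 2 of the 17 were called lower. Without control a or control b the 4 risers among the 26 kept log2 fold changes above zero, and the calls lost there are given below with each carrier. By DESeq2 the corresponding calls were SLC25A38 alone in the former and SLC25A53 alone in the latter. Among the other coding genes, 17.7% of those with such a transcript and 16.1% of those without were called higher, and 7.09% and 11.8% lower. With the trend removed, 13.1% of all tested genes were called lower. SLC25A17, a peroxisomal carrier of cofactors such as coenzyme A and FAD, has 11 NMD-class transcripts. Its levels were 59.9 and 62.2 CPM in the controls and 61.8 and 58.9 CPM after siUPF1, a log2 fold change of -0.02 ± 0.08 (SE). Its groups overlapped. The median 3′ UTR of the carriers, 970 bases, was close to the 975 bases of other coding genes, and that of SLC25A53, without an NMD-class transcript, was 5120 bases.

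SLC25A41, a short form of the ATP-Mg/phosphate carriers that lacks their calcium-binding domain, had the largest fold change in the family and one of its lowest levels. It had 11 and 6 counts in the controls and 23 and 39 counts after siUPF1, or 1.24 and 0.599 against 2.30 and 3.47 CPM. Both siUPF1 libraries lay above both controls, and the means were 0.922 ± 0.457 and 2.89 ± 0.830 CPM (SD, n = 2 each). The log2 fold change was 1.68 ± 0.37 (SE, 3.20-fold, edgeR adjusted p = 7.24e-05). With so few counts, its fold change rests on single libraries: the log2 value was 1.21 without control b (adjusted p = 0.0653) and 2.26 without control a. In DESeq2 its adjusted p was 0.0768.

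Of the related carriers with calcium-binding domains, SLC25A25 stood at 63.6 and 59.4 CPM in the controls and 69.9 and 70.5 CPM after siUPF1, without overlap, and its log2 fold change of 0.19 ± 0.08 (SE) was not called (edgeR adjusted p = 0.0597). SLC25A24 and SLC25A23 had log2 fold changes of 0.004 and -0.10 and were not called. The antisense gene SLC25A25-AS1, which is not a carrier, rose from 12.1 and 13.5 CPM to 16.01 and 21.0 CPM, with a log2 fold change of 0.54 ± 0.15 (SE, edgeR adjusted p = 0.00269). The sources used here do not say whether counting used strand, so reads of SLC25A25 and of its antisense partner cannot be told apart.

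SLC25A14, a relative of the uncoupling proteins also known as BMCP1, was at 19.01 and 20.6 CPM in the controls and at 26.1 and 25.6 CPM after siUPF1. The groups did not overlap, and the libraries of each group lay close together. The log2 fold change was 0.38 ± 0.13 (SE, edgeR adjusted p = 0.0139). The call was lost in DESeq2 (adjusted p = 0.171), without control a (0.223) and without control b (0.0818). The other uncoupling protein relatives of this symbol, SLC25A27 and SLC25A30, had log2 fold changes of 0.28 ± 0.15 and 0.06 ± 0.10 (SE) and were not called.

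SLC25A26 brings S-adenosylmethionine, the methyl donor, into mitochondria. Its 349 and 413 counts in the controls and 554 and 542 counts after siUPF1 corresponded to 39.5 and 41.2 against 55.4 and 48.3 CPM. Both siUPF1 libraries were higher than both controls, replicate 1 more so than replicate 2. The log2 fold change was 0.36 ± 0.09 (SE, edgeR adjusted p = 0.00066), and the call was lost in DESeq2 (adjusted p = 0.0672) and without control a (0.0623). LRIG1, which overlaps SLC25A26 on the opposite strand, changed the other way, from 1847 and 2000 counts to 1595 and 1906, with a log2 fold change of -0.31 ± 0.07 (SE, edgeR adjusted p = 0.000128).

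The other 10 carriers of nucleotides, cofactors and acylcarnitine were not called, and SLC25A20, the carnitine/acylcarnitine carrier, was at -0.12 ± 0.13 (SE). The pyrimidine nucleotide carriers SLC25A33 and SLC25A36 were at 0.02 ± 0.10 and 0.04 ± 0.07 (SE). The mitochondrial NAD carriers SLC25A51 and SLC25A52 are close copies of one another, and RefSeq lists 4 pseudogenes of SLC25A51, so their separate counts are uncertain. Their log2 fold changes were 0.04 ± 0.12 and 0.02 ± 0.22 (SE). Neither pair moved beyond its error.

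SLC25A38, the glycine carrier needed for haem synthesis, was the one riser also called by DESeq2 (adjusted p = 0.0400). It was at 67.8 and 66.6 CPM in the controls and 88.8 and 79.2 CPM after siUPF1, with both siUPF1 libraries above both controls. The log2 fold change was 0.32 ± 0.08 (SE, edgeR adjusted p = 0.000371), and without control b its adjusted p was 0.0511. Among the other 7 amino acid carriers, the direction was mixed and none was called by edgeR, 3 of them having an unadjusted p under 0.05, or by DESeq2. SLC25A18, a glutamate carrier of low level, had 23 and 31 counts in the controls and 40 and 55 after siUPF1 (log2 fold change 0.64 ± 0.27 SE, edgeR adjusted p = 0.0579). SLC25A22, the other glutamate carrier, was at 0.13 ± 0.07 (SE).

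The 2 aspartate/glutamate carriers of the malate-aspartate shuttle had values of -0.20 ± 0.09 for SLC25A12 (edgeR adjusted p = 0.0881) and -0.06 ± 0.07 for SLC25A13 (SE). SLC25A15, which exchanges ornithine and citrulline, was at -0.10 ± 0.08, SLC25A29, a carrier of basic amino acids, at -0.15 ± 0.07, and SLC25A44, a carrier of branched-chain amino acids, at 0.13 ± 0.07 (SE). Replicate 1 of siUPF1 lay lowest for SLC25A12 at 40.2 CPM, against 45.7 CPM in replicate 2 and 46.5 and 52.1 CPM in the controls.

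SLC25A10, the dicarboxylate carrier, was at 38.4 and 37.2 CPM in the controls and 46.0 and 47.2 CPM after siUPF1. The groups did not overlap, and libraries of 1 group differed by little. The log2 fold change was 0.30 ± 0.09 (SE, edgeR adjusted p = 0.00719), the smallest among the called carriers, and the call was lost in DESeq2 (adjusted p = 0.147), without control a (0.0789) and without control b (0.156). A coding gene annotated on the same strand in GENCODE overlaps SLC25A10 and has no row in the table, so its reads cannot be separated here. The citrate carrier SLC25A1, the oxoglutarate carrier SLC25A11 and the oxoadipate carrier SLC25A21 had log2 fold changes of -0.12, -0.02 and 0.17 and were not called.

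SLC25A53, a carrier whose substrate is not settled, was the one member that fell. Its 227 and 274 counts in the controls and 177 and 218 counts after siUPF1 corresponded to 25.7 and 27.3 against 17.7 and 19.4 CPM. Both siUPF1 libraries lay below both controls, and the log2 fold change was -0.51 ± 0.13 (SE, edgeR adjusted p = 0.000557), with an adjusted p of 0.0376 in DESeq2 and 0.0501 without control b. ZCCHC18 overlaps it on the opposite strand and went the other way, from 80 and 91 counts to 129 and 158 (log2 fold change 0.57 ± 0.17 SE, edgeR adjusted p = 0.0053).

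**Figure D2:**
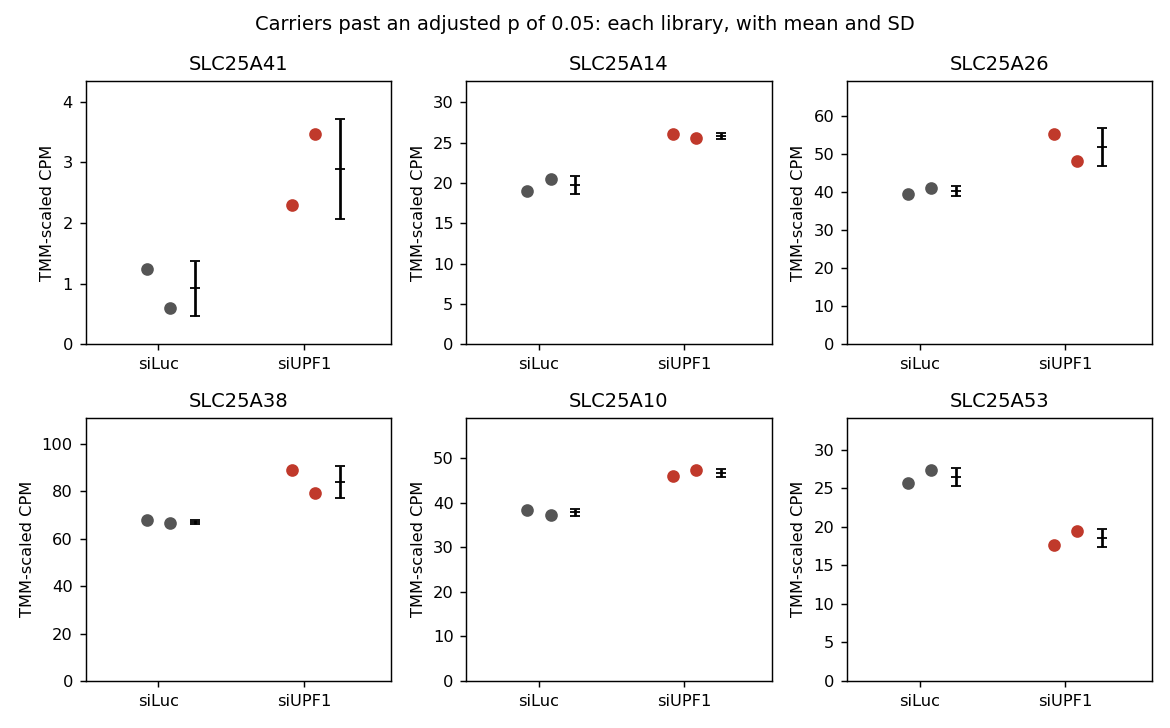
Level of the 6 called carriers in each library (y axis, TMM-scaled CPM from 0, one scale per panel), with the 2 siLuc libraries in grey, the 2 siUPF1 libraries in red, and the mean and SD of each group beside them. In every panel the groups do not overlap, and SLC25A41 sits between 0.599 and 3.47 CPM while the others lie above 17.

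The remaining members without a settled substrate were not called. SLC25A43 was at 19.2 and 23.5 CPM in the controls and 26.6 and 25.6 CPM after siUPF1 (log2 fold change 0.28 ± 0.12 SE, edgeR adjusted p = 0.0809), and SLC25A46, which sits in the outer membrane and acts in mitochondrial shape, was at 0.01 ± 0.08 (SE). SLC25A48 had 7 and 15 counts in the controls and 14 and 23 after siUPF1, groups that overlapped in CPM, and its log2 fold change was 0.58 ± 0.39 (SE). CXCL14, which overlaps SLC25A48 on the opposite strand, rose from 35 and 38 counts to 171 and 137 (log2 fold change 1.91 ± 0.20 SE, edgeR adjusted p = 2.99e-19). Its part in the value of SLC25A48 was not tested.

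The iron and glutathione carriers all had values below zero, none of them called by edgeR (2 of 4 had an unadjusted p under 0.05) or by DESeq2. The mitoferrins SLC25A28 and SLC25A37, which import iron, were at -0.24 ± 0.12 and -0.08 ± 0.10, and the glutathione carriers SLC25A39 and SLC25A40 at -0.12 ± 0.07 and -0.18 ± 0.09 (log2 fold change ± SE). SLC25A40 was at 44.5 and 48.3 CPM in the controls and 41.1 and 40.7 CPM after siUPF1, without overlap, while for SLC25A37 the groups overlapped. When the trend of the change on read density, described next, was removed, SLC25A28 (-0.30, adjusted p = 0.0446) and SLC25A40 (-0.26, adjusted p = 0.0208) passed the edgeR threshold. So did SLC25A12 (-0.29, 0.0182) and SLC25A15 (-0.16, 0.0448) among the amino acid carriers. In that fit 5 of 43 carriers and 13.1% of all tested genes were called lower.

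Levels per transcript length, in reads per kilobase and 1e+06 mapped reads (RPKM), spanned 1.20 for SLC25A48 to 78.8 for SLC25A6, with a median of 20.1 over the carriers against 17.1 over all tested genes. The adenine nucleotide translocase SLC25A6 led, followed by its relative SLC25A5 (68.9), the citrate carrier SLC25A1 (67.4), the glutathione carrier SLC25A39 (60.1) and the phosphate carrier SLC25A3 (55.7). Over the 4 libraries SLC25A6 ran from 72.7 to 84.6 RPKM, SLC25A5 from 61.8 to 75.1 and SLC25A1 from 62.2 to 74.2. SLC25A6 was above SLC25A5 in each library, while the order of SLC25A5 and SLC25A1 differed between libraries. SLC25A6 was at 125 and 115 CPM in the controls and 118 and 108 CPM after siUPF1, and its groups overlapped. SLC25A4, the translocase typical of heart and muscle, had a lower level of 12.6 RPKM. At the other end were SLC25A48, SLC25A41 (1.23) and SLC25A18 (1.96), and 7 carriers were under 5 RPKM. Counts of SLC25A5, SLC25A6, SLC25A1 and SLC25A3 are uncertain to the degree that reads were shared with their 9, 6, 5 and 3 RefSeq pseudogenes. The same limit holds for SLC25A39, with 2, and SLC25A15, with 5. Among the called carriers it holds for SLC25A14, SLC25A38 and SLC25A53, with 1 each. The highest level over all tested genes was only 113 RPKM, and the 10 genes of most counts held 0.64% to 0.69% of each library. Whether a ceiling on the counts compressed the levels of the top carriers, and their distance from the others, was not tested.

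**Figure D3:**
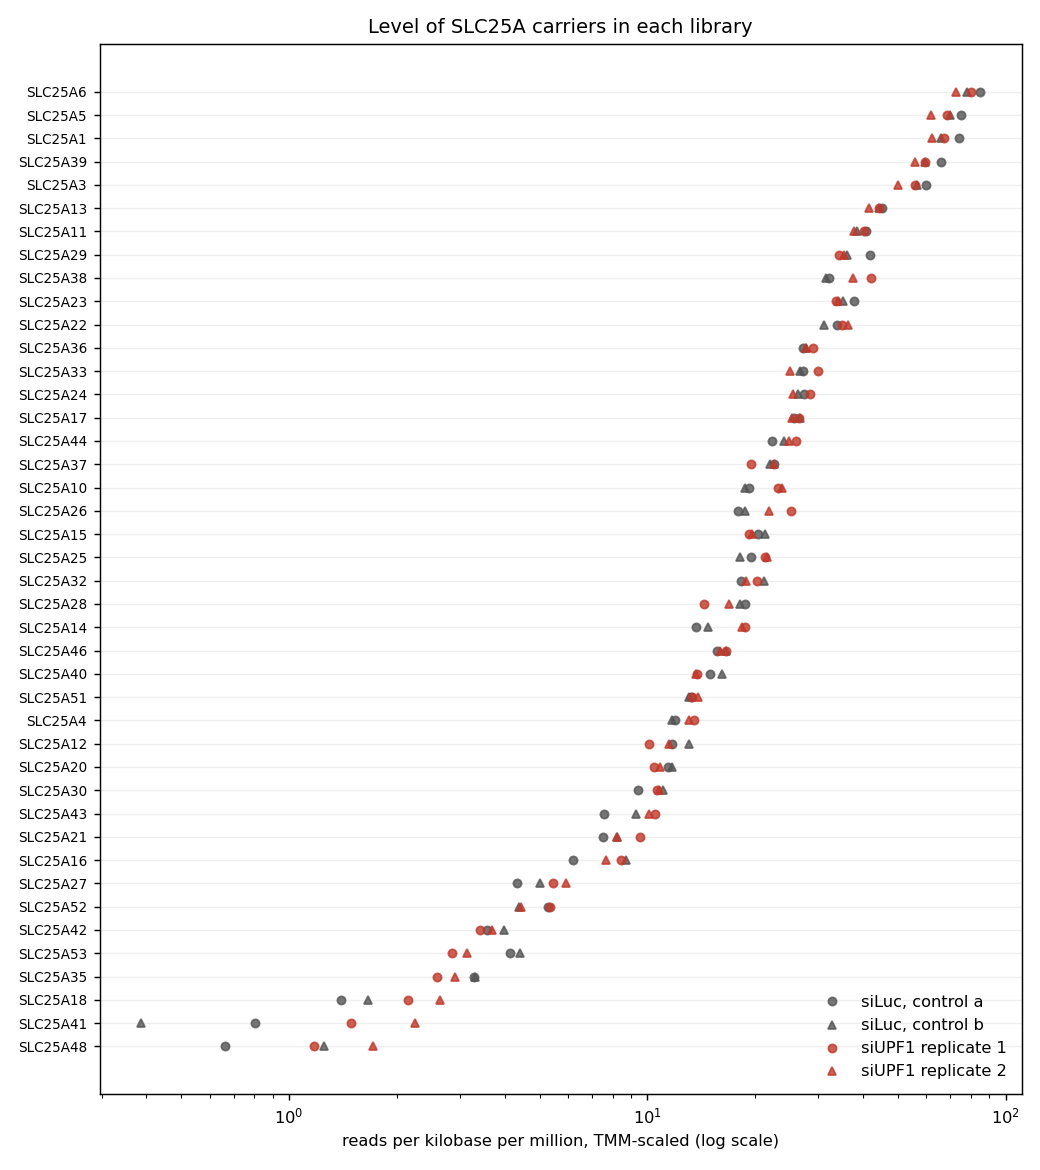
Level of 42 carriers in each library (x axis, RPKM on a log scale), ordered by the mean over the 4 libraries, with controls in grey and siUPF1 in red. The carriers spread from 1.20 to 78.8 RPKM, and the grey and red symbols lie close together for most, with SLC25A41 as the widest separation.

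None of the 5 carriers of highest level was called by edgeR or DESeq2 with all libraries, and all 5 had log2 fold changes slightly below zero: -0.09 ± 0.07 for SLC25A6, -0.16 ± 0.08 for SLC25A5, -0.12 ± 0.07 for SLC25A1, -0.12 ± 0.07 for SLC25A39 and -0.14 ± 0.07 for SLC25A3 (SE), with SLC25A5 alone under an unadjusted p of 0.05. SLC25A4 was at 52.7 and 51.7 CPM in the controls and 59.5 and 57.4 CPM after siUPF1, and its value was 0.16 ± 0.08 (SE, edgeR adjusted p = 0.146). SLC25A5 stood at 84.1 and 78.5 CPM in the controls and 76.8 and 69.2 CPM after siUPF1, and SLC25A3 at 114 and 107 against 106 and 95.3 CPM, both without overlap. Without siUPF1 replicate 1, which leaves a single siUPF1 library, the log2 fold changes of SLC25A5 and SLC25A3 were -0.23 and -0.21. Without replicate 2 they were -0.08 and -0.06, and with the trend on read density described next removed -0.03 and -0.05.

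Across all tested genes the change moved with read density. The median log2 fold change was 0.08 in genes with 0.04 to 0.08 reads per transcript base and -0.14 in those above 0.6, and no gene of at least 100 counts exceeded 1.13 reads per base in the mean of the 4 libraries. The 5 carriers above 0.5 reads per base, which are the 5 of highest level, had a median of -0.12. This was the same as in the 1072 tested genes of that density. In genes above 0.6 reads per base the 10th to 90th percentile ran only from -0.22 to -0.02. Small values below zero therefore do not set these carriers apart from other genes of their density. With the trend removed from each library, SLC25A6 was at 0.06 and SLC25A1 at 0.003, on the other side of zero, and neither was called. The 5 risers and SLC25A53 kept their calls in that fit. Over all genes, 2613 were called higher and 1422 lower (64.8% of calls higher), and with the trend removed 2183 and 2045 (51.6%).

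**Figure D4:**
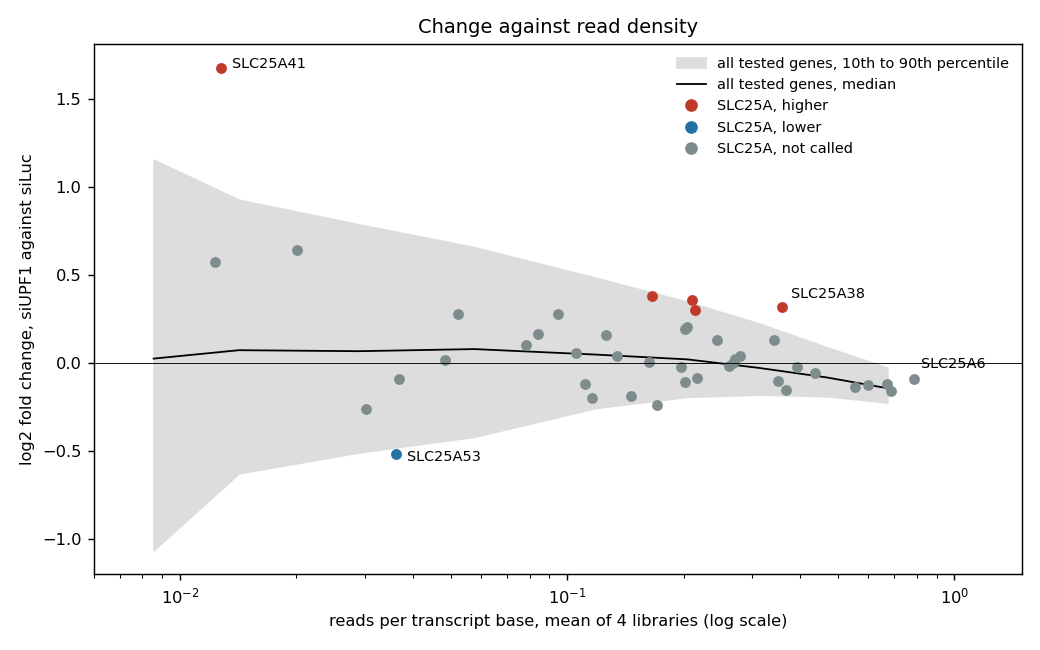
Log2 fold change (y axis, siUPF1 against siLuc) against reads per transcript base (x axis, log scale) for the 43 carriers, over the median and the 10th to 90th percentile of all tested genes in bins of density. Carriers of highest density follow the fall of the median to -0.14. SLC25A41 and SLC25A38 lie above the band, SLC25A26 at its upper edge and SLC25A53 near its lower edge.

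A further 5 genes encode proteins of the same fold under other symbols, and 2 of these, UCP3 and UCP1, rose (40.0%, against 16.8% of all tested genes). UCP3, an uncoupling protein typical of muscle, went from 18 and 27 counts to 43 and 51 (log2 fold change 0.89 ± 0.28 SE, edgeR adjusted p = 0.00776), and UCP1, the uncoupling protein of brown fat, from 8 and 3 counts to 14 and 17 (1.30 ± 0.47 SE, adjusted p = 0.0266). Both were higher in both siUPF1 libraries than in both controls, at low counts, and neither was called by DESeq2. Only 1 of them was called when any single library was left out: UCP1 without control a, and UCP3 without control b or either siUPF1 library. UCP2, the widely expressed form, was at -0.06 ± 0.08, and the outer-membrane proteins MTCH1 and MTCH2 were at 0.03 ± 0.07 and -0.08 ± 0.08 (SE), none of them called.

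Carriers reach the inner membrane through the TOM complex and the TIM22 route. Of 16 genes of this import route, 1 rose and 1 fell (6.25% each, against 16.8% and 9.14% of all tested genes), with a median log2 fold change of -0.03. TIMM10B, a subunit of the TIM22 complex that binds the small chaperones, was at 85.2 and 86.8 CPM in the controls and 104 and 97.4 CPM after siUPF1 (0.23 ± 0.07 SE, edgeR adjusted p = 0.0105). TOMM70A, the receptor that recognises carrier precursors, was at 165 and 161 against 145 and 143 CPM (-0.18 ± 0.07 SE, adjusted p = 0.046). The 2 calls went in opposite directions, and the groups did not overlap for either. Neither was called by DESeq2 or without either one of the controls.

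Of 21 other transporters of the mitochondrial membranes, 4 rose (19.05%) and 0 fell by edgeR, with a median of 0.05. DESeq2 called 2 of the 21 higher and 0 lower, where 8.19% and 2.99% of all tested genes were. SFXN5, a sideroflexin, went from 105 and 101 CPM to 133 and 136 CPM (0.39 ± 0.07 SE, edgeR adjusted p = 1.08e-06). SFXN3, a sideroflexin that carries serine, went from 25 and 44 counts to 86 and 82 (1.12 ± 0.23 SE, adjusted p = 1.42e-05), and ABCB10, an inner-membrane ABC transporter, from 43.6 and 51.8 CPM to 61.4 and 59.2 CPM (0.33 ± 0.09 SE, adjusted p = 0.00081). The fourth was ABCB8, at 0.22 ± 0.08 (SE, adjusted p = 0.0312). VDAC1, a pore of the outer membrane, was the one gene of this list lower at an unadjusted p under 0.05 (-0.16 ± 0.07 SE, edgeR adjusted p = 0.0861). The share called higher by edgeR was near the 16.8% of all tested genes.

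**Figure D5:**
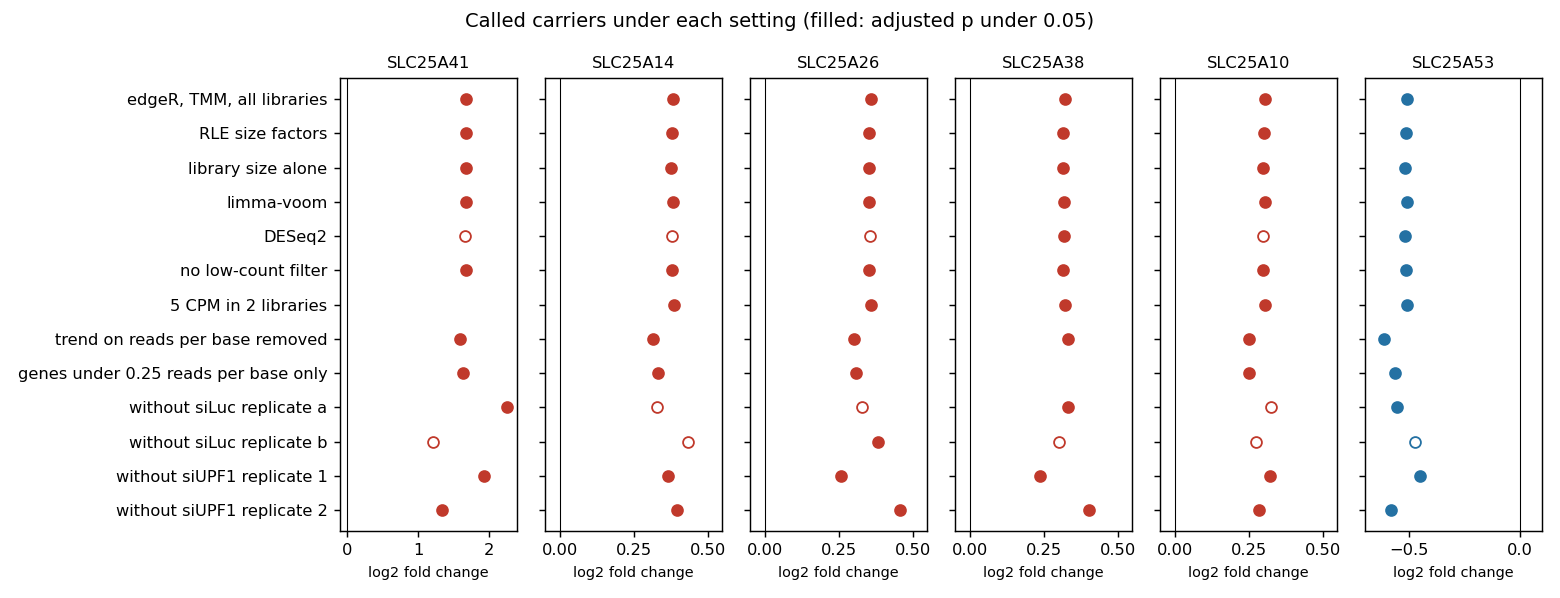
Log2 fold change (x axis, one scale per panel except for shared scales of the 4 middle genes) of the 6 called carriers under the main test and each other setting (rows), filled where the adjusted p is under 0.05. All points of a carrier lie on one side of zero, open points gather at DESeq2 and at the fits without a control library, and SLC25A41 fails the 5 CPM filter and SLC25A38 the limit of 0.25 reads per base, so they have no point there.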

How the data were processed

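Total RNA of H9 cells was sequenced, and all values come from 1 table for the series, which lists symbols, RefSeq transcripts, RPKM and counts, per the file headers. The counts are whole numbers, which the authors deposited unnormalized. RPKM is the authors' own scaling by length and library total. STAR, DESeq2 and the build hg19 are named in the submitters' processing notes without versions. Use of strand and treatment of multimapped or repeated reads are not given in the sources used here. Both control count columns carry 1 name, so control a and control b have no replicate number, and 2 control RPKM columns were not used.

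The test was edgeR 4.0.16 (glmQLFit, glmQLFTest, two-sided) in R 4.3.3 with TMM and filterByExpr, which removed 385 genes and kept 15557, at an adjusted p (Benjamini-Hochberg) of 0.05. Its recovery of planted changes was checked on counts simulated with its own fitted dispersions. Those counts held no trend on read density, so the check does not bear on that trend. SE is the size of the log2 fold change divided by the square root of F. The biological coefficient of variation was 4.47%, and chi-square per degree of freedom was 1.70 between controls, 2.85 between siUPF1 libraries and 8.65 to 9.41 across groups, so no library was a copy of another. RPKM per library was computed from counts with lengths derived from the siUPF1 RPKM. Alternatives were DESeq2 1.42.0, limma-voom (limma 3.58.1), RLE, library size alone, other filters and thresholds, a loess (span 0.3) removal of the trend on reads per base, genes under 0.25 reads per base only, and each library left out. Transcript classes came from GENCODE 29 (GRCh38), and pseudogenes from RefSeq.

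Members and lists were chosen with earlier results of these data known. By rule, values are given for every called carrier, the 5 of highest level, the adenine nucleotide set and, in other lists, the 3 called genes of smallest p. Other members are given by class. SLC25A17, the partners on the opposite strand, ABCB8 and VDAC1 were named after their values were seen. The values of 1 member are not reported here by name, and it is left out of the plots that label each carrier.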

Additional observations from a re-analysis of the deposited data

How the results depend on the processing

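The carriers called higher numbered 5, and 1 in DESeq2, 8 at an adjusted p under 0.1, 1 at a fold of at least 1.5 and 1 to 6 when a library was left out (2 without control a, 1 without control b). The carriers called lower numbered 1, and 5 after removal of the read-density trend, 4 among genes under 0.25 reads per base, 2 at an adjusted p under 0.1, 0 at a fold of at least 1.5 and 0 to 3 when a library was left out. The 0 without control b is edgeR's count, with 3 carriers lower at an unadjusted p under 0.05. The cause was not tested. Lower calls also made up more of all tested genes under 2 of these settings, against 9.14% in the main test. With the trend removed they were 13.1% of all tested genes, beside 5 of 43 carriers. Under 0.25 reads per base they were 1214 of 10132 tested genes, beside 4 of 28 carriers. The larger counts of lower carriers therefore do not by themselves set the family apart. Over all genes the count was 1274 higher and 465 lower in DESeq2, against 2613 and 1422 in the main test. Leaving 1 library out left a single library in a group, so counts of calls in those fits are not given here. The 6 called carriers kept their direction in each of those fits, and the calls lost there are given above. SLC25A6 turned to 0.0608 and SLC25A1 to 0.00337 with the trend removed, a construction that subtracts the fall at high density. RLE, library size alone, limma-voom, no filter and the 5 CPM filter kept both counts within 1.5 times. The carrier median was 0.01 in the main test and ran from -0.038 without siUPF1 replicate 1 to 0.036 without replicate 2. Every shift from the main test was under 0.0498, the SD of that median over the siUPF1 libraries. As this SD comes from the same libraries, leaving 1 of them out could hardly exceed it. Over the 12 carriers followed singly, 121 values kept direction and call, 12 lost the call, 2 gained it and 2 turned sign. Counting error is largest in carriers of few counts such as SLC25A41, SLC25A48 and SLC25A18. No paired analysis was possible because the control count columns carry no replicate number.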
